A study of Spermophilus dauricus with 30 samples.

Results

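RNA sequencing of skeletal muscle was used to compare SOL with EDL in Daurian ground squirrels (*Spermophilus dauricus*) after hibernation. These small mammals pass the winter in bouts of torpor. SOL commonly stands for the soleus and EDL for the extensor digitorum longus. The comparison rests on 6 of the 30 libraries in the series: the 3 SOL and the 3 EDL libraries of the post-hibernation (POST) state, chosen by their labels. The libraries with the same number were treated as a pair, which gave 3 pairs. The other 24 libraries come from summer active (SA), pre-hibernation (PRE), hibernation (HIB) and interbout arousal (IBA) animals, with 3 SOL and 3 EDL libraries in each of these 4 states. All 30 samples carry the genotype label WT. The treatment label is the same for every sample, the summer active ones included. Age, sex and the time since the end of hibernation are not in the labels, and neither is whether a sample comes from a single animal.

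The soleus is a postural muscle that bears load for long periods, and in most mammals it is rich in slow, oxidative fibres. The extensor digitorum longus lifts the toes and is mainly made of fast fibres that contract quickly and rely more on glycolysis. The fibre types differ in the myosins, troponins and calcium pumps they make, so a large part of a muscle's messenger RNA differs between such muscles. Hibernators are studied because their muscles go through a winter of disuse with little wasting.

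The deposited table gives its genes as identifiers, 26378 plain numbers and 1016 with a text prefix, and does not pair them with gene names. The genes are therefore described by number, direction, level and size of difference, and the fibre types behind the labels were not checked against marker genes. In whole-muscle RNA, fewer cells of a type and less RNA per cell cannot be told apart, so a difference can be either. The 6 POST libraries held 33600887 to 41972200 counts and had counts for 17865 to 19488 identifiers.

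POST SOL replicate 1 lay apart from the other libraries before any comparison was made. On the first principal component of log2 CPM (CPM being read counts scaled to the size of the library), which carried 35.7% of the variance, the 3 EDL libraries lay at 48.2, 49.7 and 50.8. The SOL libraries with numbers 2 and 3 lay at -33.6 and -23.9, and SOL replicate 1 at -91.3. The first component thus parted the muscles without overlap, and the EDL libraries lay close together on it while the SOL libraries were spread out. The second component, with 28.6% of the variance, placed SOL replicates 1, 2 and 3 at 60.6, -28.1 and -85. For 784 genes, the level in SOL replicate 1 was more than 1 log2 unit below the lowest of the other 14 SOL libraries of all states, and for 126 it was that far above the highest. In the other 5 POST libraries, 46 to 87 genes were outside the range of their own muscle by that margin.

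**Figure D1:**
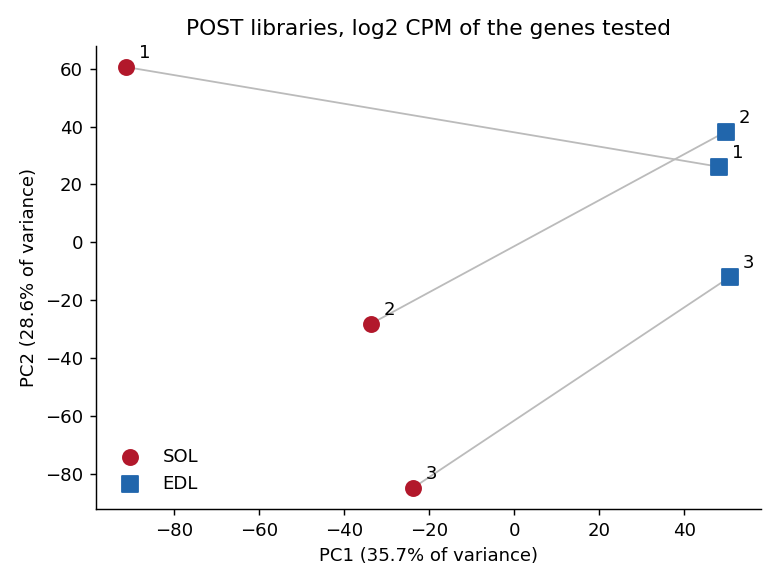
First and second principal components of the 6 POST libraries from log2 CPM of the genes tested, with SOL as circles, EDL as squares, replicate numbers beside the points and grey lines joining each pair. The EDL points lie together near 50 on the first component, and SOL replicate 1 lies farthest from them at -91.3.

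The muscles differed after hibernation for 3084 of 16946 genes tested (18.2%), at an adjusted p under 0.05 in edgeR's quasi-likelihood test with Benjamini-Hochberg adjustment. SOL was the higher muscle for 1597 of them (9.42% of the genes tested), where the log2 difference had a median of 0.89 and reached 9.22. The 9.22 belonged to an identifier with a text prefix. Among SOL-higher genes with a mean of at least 5 CPM, no overlap and a call with number 1 left out, the largest was 6.31. EDL was the higher one for the other 1487 (8.77%), where the median was -0.84 and the largest difference -9.82. A log2 difference here is SOL minus EDL, so that positive values are higher in SOL. The difference was more than 2-fold for 678 of the SOL-higher and 598 of the EDL-higher genes, and more than 8-fold for 150 and 137 of them. It was under 1.5-fold for 330 and 371. The SOL and EDL values did not overlap for 2025 of the 3084 genes (65.7%), against 17.3% of all genes tested. All 3 pairs had the same sign for 2958 of them (95.9%), against 39.2% of all genes. The genes were called from these same libraries, so both shares follow in part from the call and are a description.

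The count of 3084 genes depends on where the spread between pairs is taken from. In the fit above, all 15 pairs of the 5 states share 1 estimate of the spread for each gene. The spread of the SOL minus EDL difference between the 3 pairs was larger in POST than in the other states. Its median standard deviation over genes was 0.456 in POST, while SA had 0.300, PRE 0.291, HIB 0.314 and IBA 0.232 (log2 CPM). The shared estimate draws mostly on states with a smaller spread, so its p-values are likely too small for POST at many genes. The shares and medians of called genes given below rest on the 3084 unless another set is named. With the spread taken from the 6 POST libraries alone and the pairs kept, edgeR called 501 genes, with SOL above EDL in 253 and below it in 248. All but 2 of the 501, that is 499, were among the 3084. Without pairing, the count was 1426 with all 30 libraries and 300 with the 6 POST libraries. Of the 3084 genes, 1242 (40.3%) were called again by edgeR without each of the 3 pairs in turn. Among these the SOL-higher genes numbered 596, at a median difference of 1.25 on the log2 scale, and the EDL-higher genes 646, at a median of -1.19.

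**Figure D2:**
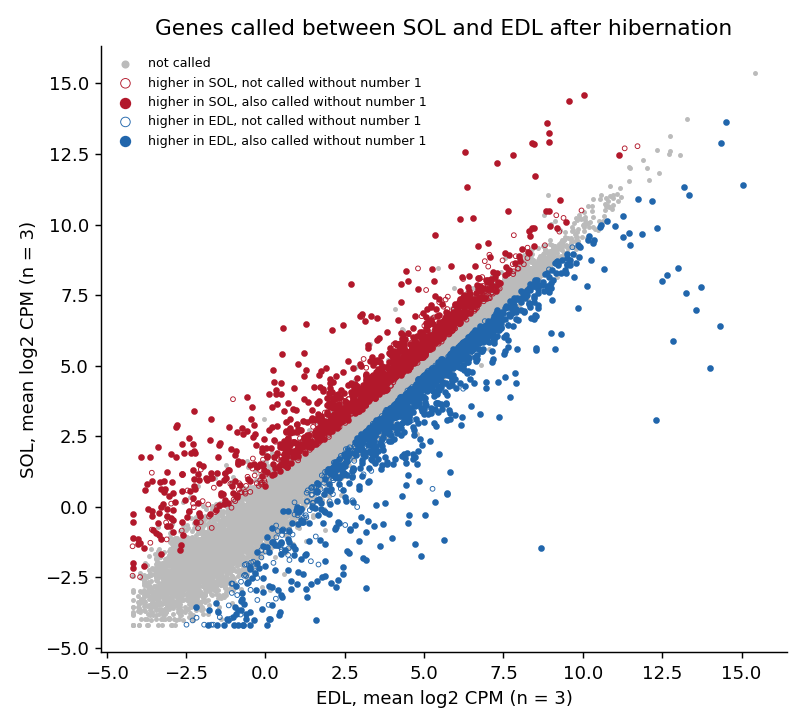
Mean log2 CPM of each gene tested in the 3 POST EDL libraries (horizontal axis) and the 3 POST SOL libraries (vertical axis), with red for SOL-higher calls, blue for EDL-higher calls and grey for genes not called. Filled points were also called without number 1. Coloured points lie on both sides of the diagonal at all levels, with the largest distances from it among the filled ones.

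The genes that differed held a large share of the read counts, which were not corrected for transcript length. The 1597 SOL-higher genes held 24.3%, 25.4% and 22% of the counts of SOL replicates 1, 2 and 3. In EDL replicates 1, 2 and 3 they held 5.57%, 5.75% and 7.04%. The 1487 EDL-higher genes held 36%, 35% and 26.9% of the EDL libraries and 10.1%, 9.97% and 9.31% of the SOL libraries. These shares describe genes chosen for their difference in the same libraries, and the groups do not overlap in either case. Number 3 had the lowest share of its own muscle's genes in both muscles.

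More of the genes with a high level were called. It was 5.87% of the 3286 genes with a mean under 1 CPM over the 6 libraries and 16.2% of those from 1 to 10 CPM. It was 23.7% from 10 to 100 CPM, 24.2% from 100 to 1000 CPM and 44.6% of the 112 genes at 1000 CPM or more. Among these 112 most abundant genes, SOL was the higher muscle for 19 and EDL for 31. The median size of the called differences was 2.25 on the log2 scale in this class. It was 3.07 under 1 CPM, 1.15 from 1 to 10, 0.7 from 10 to 100 and 0.81 from 100 to 1000 CPM. Called differences were thus largest among the genes with the lowest level and smallest at middle levels. Few genes under 1 CPM were called, so the 3.07 follows in part from the call. Over all genes tested the median sizes were closer, at 0.62, 0.35, 0.26, 0.27 and 0.54 from the lowest to the highest class. Of the 50 genes with the highest mean level, 32 were called with all pairs, of which SOL was the higher muscle for 13 and EDL for 19, and 32 were called without number 1. Few genes were close to absent from a muscle. At least 5 CPM in each SOL library and under 1 CPM in each EDL library was found for 3 genes, and the reverse for 8. These 11 were chosen by their POST values, so their calls in POST are no result. Their means differed in the same direction in the 4 other states. The 3 were called in each of the 4 other states, and so were the 8 apart from 1 that was not called in HIB. Of all genes tested, 6.72% to 13.1% were called in each of these states.

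Of the 946 identifiers with a text prefix that were tested, 223 were called (23.6%, against 18.2% of all genes tested), with 107 towards SOL and 116 towards EDL. Their differences were larger than those of the called genes as a whole, with medians of 2.43 and -2.09 on the log2 scale. Their levels were lower, with a median of 2.47 CPM against 20.4 CPM over all called genes. Of the 223, 159 were also called without number 1.

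The identifiers given by number are the 2 with the largest differences in each direction among genes that met 4 conditions. The conditions were a call in POST, a mean level of 5 CPM or more in the 6 libraries, SOL and EDL values without overlap, and a call without number 1. They were met by 613 SOL-higher genes, with log2 differences from 0.39 to 6.31, and 670 EDL-higher genes, with differences from -9.82 to -0.31.

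Identifier 101976734 stood at 10500, 11700 and 1880 CPM in SOL replicates 1, 2 and 3 and at 181, 158 and 16.2 CPM in the EDL replicates of the same numbers. Number 3 was lowest in both muscles, and the differences within the pairs were close to each other at 5.86, 6.21 and 6.85 on the log2 scale. The SOL mean was 8050 ± 5380 CPM and the EDL mean 119 ± 89.4 CPM (SD, n = 3 each), a log2 difference of 6.31 ± 0.80 (SE, edgeR adjusted p = 9.34e-05). Without number 1 it was 6.51 ± 0.99 (edgeR adjusted p = 0.00051). In SA, PRE, HIB and IBA the difference was 5.43, 7.44, 6.76 and 5.25 on the log2 scale, with SOL higher each time. The SOL means of these states were 5890 ± 2020, 5440 ± 2650, 2350 ± 487 and 2570 ± 569 CPM (SD, n = 3 each).

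Identifier 101969717 was the next largest towards SOL and was far more uneven. It stood at 149, 418 and 8.04 CPM in SOL replicates 1, 2 and 3, and at 2.43, 1.29 and 0.909 CPM in the EDL replicates. Every SOL library was above every EDL library, but SOL replicate 3 was many times lower than the other SOL libraries, and the differences within the pairs were 5.91, 8.28 and 3.07. The fitted log2 difference was 5.92 ± 1.24 (SE, edgeR adjusted p = 0.00401), and 5.99 ± 1.57 without number 1 (edgeR adjusted p = 0.0138). SOL was also higher in SA, by 5.82 ± 1.13 (edgeR adjusted p = 0.00322), in PRE, by 7.86 ± 1.27 (edgeR adjusted p = 0.000889), and in HIB, by 5.35 ± 1.30 (edgeR adjusted p = 0.0177). In IBA its SOL libraries ranged from 1.62 to 57.9 CPM and overlapped the EDL libraries, at 2.17 to 3.18 CPM, and the difference of 2.59 ± 1.14 did not pass (edgeR adjusted p = 0.22). A test of POST against IBA for this difference did not pass either, at 3.33 ± 1.57 (edgeR adjusted p = 0.687).

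Identifier 101976316 was nearly absent from SOL, at 0.296, 1.69 and 0.0203 CPM in replicates 1, 2 and 3, from 1 to 55 counts per library. In EDL it stood at 876, 470 and 174 CPM. The SOL and EDL values were more than 100-fold apart in each pair, and the log2 difference was -9.82 ± 0.65 (SE, edgeR adjusted p = 3.74e-07). Without number 1 it was -9.05 ± 0.61 (edgeR adjusted p = 9.35e-07). EDL was higher in the other states too, with log2 differences of -11.17, -11.83, -10.22 and -8.35 in SA, PRE, HIB and IBA.

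Identifier 101973267 was among those with the most reads in EDL, at 26400, 24700 and 6720 CPM in replicates 1, 2 and 3. In SOL it stood at 17.8, 271 and 5.74 CPM, where replicate 2 was many times higher than the others. The differences within the pairs were -10.53, -6.51 and -10.18, and the fitted log2 difference was -9.22 ± 1.17 (SE, edgeR adjusted p = 8.95e-05). It was -8.34 ± 1.30 without number 1 (edgeR adjusted p = 0.000589). The call was lost with only the 6 POST libraries and no pairing, where the log2 difference was -7.66 (edgeR adjusted p = 0.0585). Its EDL mean of 19300 ± 10900 CPM in POST stood above its EDL means of 5850 ± 4140, 2590 ± 107, 3580 ± 1750 and 5680 ± 7080 CPM for SA, PRE, HIB and IBA (SD, n = 3 each). The POST EDL values lay above all those of PRE and HIB and overlapped those of SA and IBA, and the muscle difference did not pass a test against that of any other state (edgeR adjusted p from 0.604 to 0.771).

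**Figure D3:**
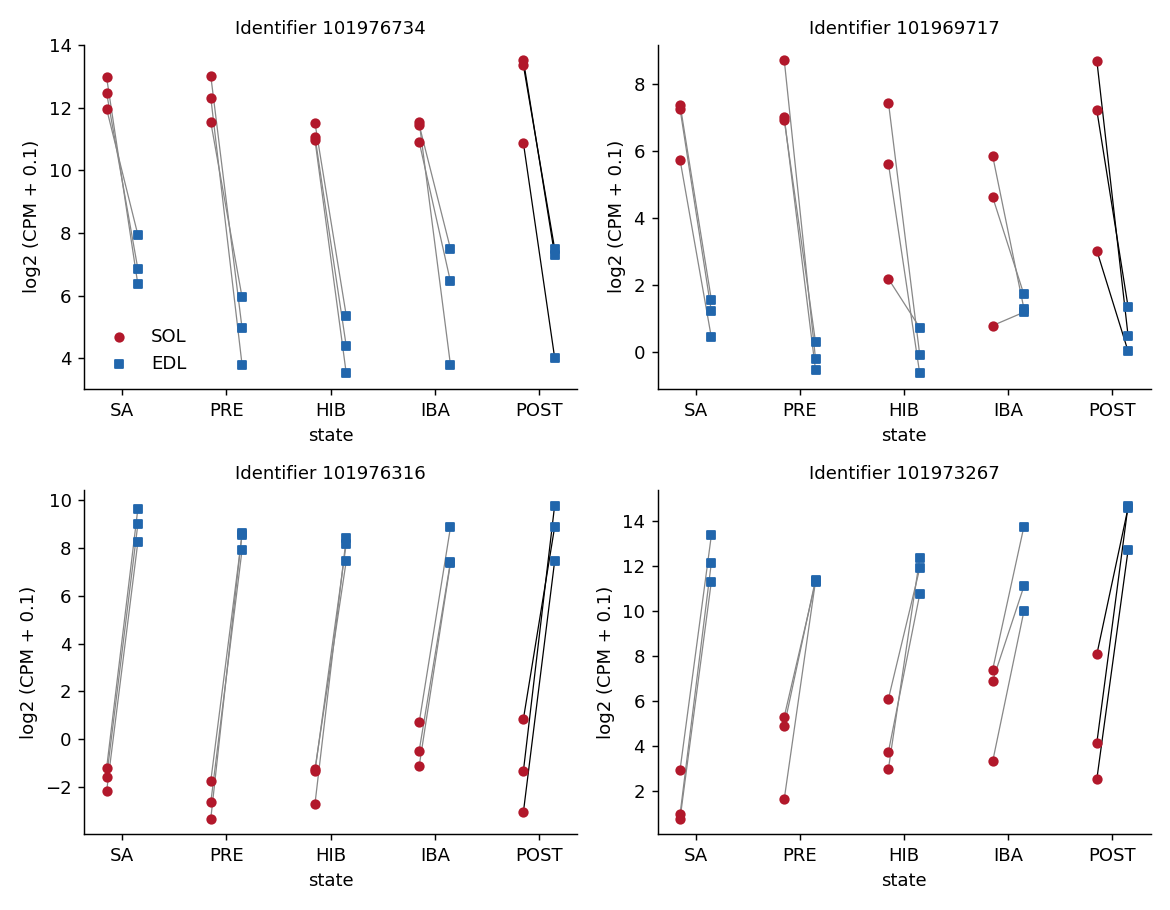
Level of the 4 identifiers in each library, as log2 of CPM plus 0.1, in the 5 states, with SOL as red circles, EDL as blue squares and lines joining same-numbered libraries. In POST every SOL point lies above every EDL point for 101976734 and 101969717 and below for 101976316 and 101973267, and only 101969717 in IBA has SOL and EDL points that overlap.

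Leaving out both libraries of number 1 raised the count, although fewer libraries were compared. Of 17200 genes tested without number 1, edgeR called 3889 (22.6%), with SOL above EDL for 1954 (11.4%) and below it for 1935 (11.2%). The 2 lists shared 2333 genes, which were 75.6% of the genes called with all 3 pairs and 60% of those called without number 1, and all of the shared genes had the same sign. Called with all 3 pairs and not without number 1 were 751 genes, and 1554 of the genes tested both times were called only without number 1. In the fit of the POST libraries of numbers 2 and 3 alone, which leaves 1 residual degree of freedom, edgeR called 1585. Without number 2 the count with all states in the fit was 2024 and without number 3 it was 2200. The direction of all 3084 genes was kept when any of the 3 pairs was left out. Each of these fits still holds pairs from which the genes were called, so the kept direction is a description.

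Pair 1 was at odds with the other pairs for many genes. The sign in the pair that a fit did not hold was read for the genes called without it. Pair 1 had the same sign as the call for 2603 of 3887 genes (67%), against 55.1% of all genes. Pair 2 had it for 93.6% of 2021 genes, against 65.7% of all, and pair 3 for 84.6% of 2196, against 61.7%. In pair 1 the share was 59.7% for SOL-higher and 74.3% for EDL-higher genes. The share over all genes was not split by direction, so neither can be set against its own base. The median difference in pair 1, taken in the direction of the call, was 0.29 on the log2 scale, while the fit of pairs 2 and 3 gave a median of 0.89 for the same genes.

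Among the 1554 genes called only without number 1, SOL replicate 1 was the library farthest from its group. In the direction of the call, their median log2 differences were -0.27 in pair 1, 0.62 in pair 2 and 0.84 in pair 3, and 1205 of them (77.5%) had the opposite sign in pair 1. For the 839 of them that were higher in SOL, SOL replicate 1 lay below both other SOL libraries in 769 genes. Its median level was -0.87 on the log2 scale, relative to the mean of the 4 libraries of numbers 2 and 3, against 0.33 and 0.63 in SOL replicates 2 and 3. EDL replicates 1, 2 and 3 stood at -0.15, -0.55 and -0.39. The 715 that were higher in EDL had a median of 0.23 in SOL replicate 1, against -0.15 and -0.43 in the other SOL libraries and 0.08, 0.32 and 0.27 in the EDL libraries. At the median, SOL replicate 1 was thus at or beyond the level of the other muscle for these genes, while EDL replicate 1 was shifted less.

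The 2333 genes called both ways did not share this pattern. Their median differences in the direction of the call were 0.77, 0.95 and 1.03 in pairs 1, 2 and 3, and 76 had the opposite sign in pair 1. For the 751 genes called only with all 3 pairs, pair 1 was the largest, with medians of 1.05, 0.56 and 0.52, and 64.3% of them were higher in SOL. These 3 sets were formed from the same pairs, so their pair values are a description.

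**Figure D4:**
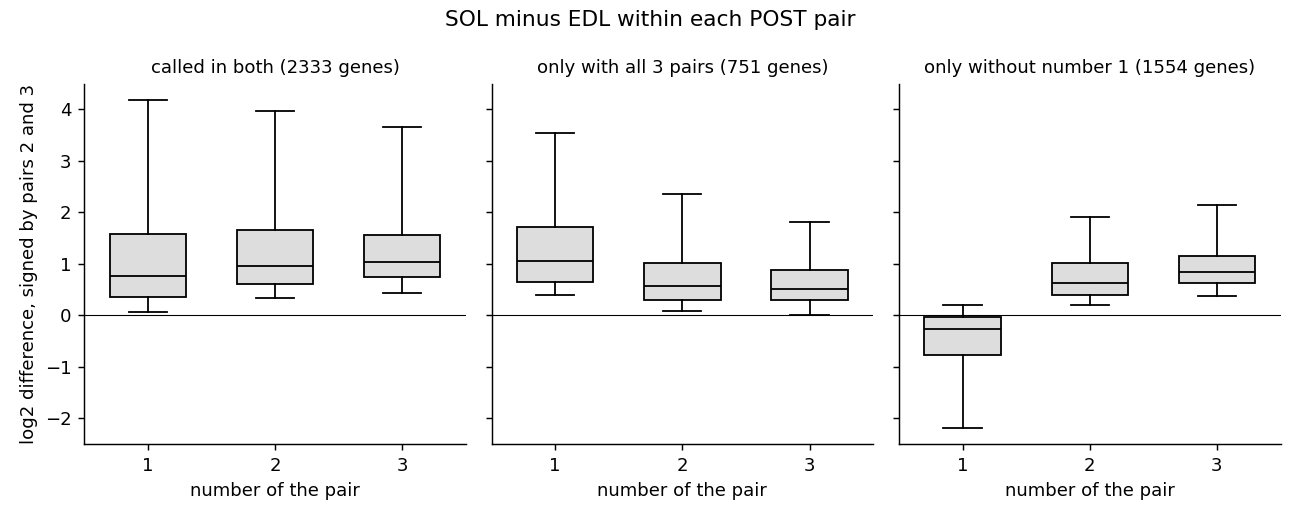
Log2 difference between SOL and EDL within each POST pair, signed so that the mean direction of pairs 2 and 3 is positive, for genes called both with and without number 1, only with all 3 pairs and only without number 1. Boxes give the median and quartiles and whiskers the 5th and 95th percentiles over genes. In the right panel the box of pair 1 lies below 0, with a median of -0.27.

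The other 4 states show how far the muscle difference after hibernation is shared across the year. These comparisons hold no library in common, though they share the estimate of the spread. In the fit of all 30 libraries, edgeR called 2215 genes between SOL and EDL for SA (13.1%), 1685 for PRE (9.94%), 1422 for HIB (8.39%) and 1139 for IBA (6.72%), and POST had the most. With each state's own 6 libraries, an alternative added after seeing the data, the order changed. The counts were then 1931 for SA, 1827 for PRE, 1266 for HIB and 2515 for IBA, and with 501 POST had the fewest. Sizes differed less than either count: the median size of the log2 difference over all genes was 0.331 in POST and 0.310, 0.259, 0.241 and 0.243 in SA, PRE, HIB and IBA.

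**Figure D5:**
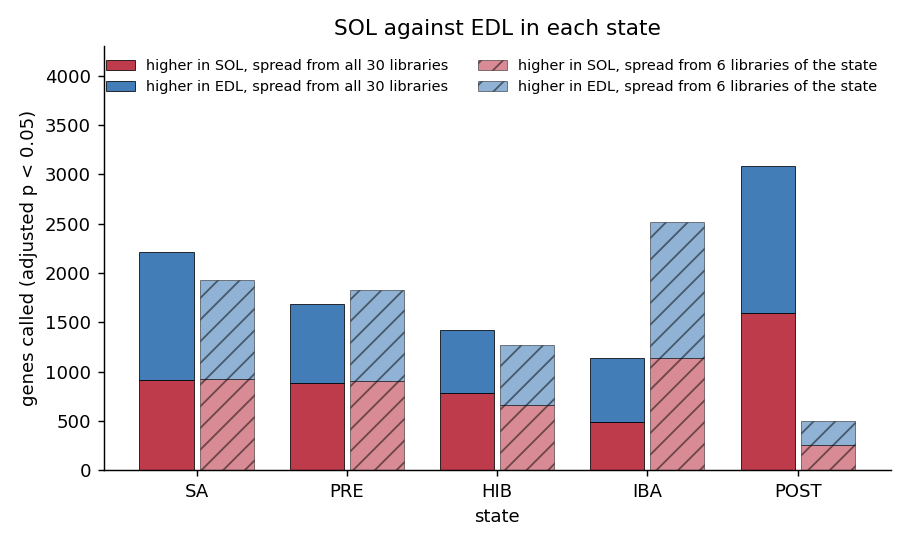
Number of genes called between SOL and EDL in each state at an adjusted p under 0.05, stacked by direction, with the spread taken from all 30 libraries (plain bars) or from the state's own 6 libraries (hatched bars). POST has the tallest plain bar, with 3084 genes, and the shortest hatched bar, with 501.

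Most genes that differed after hibernation stood in the same direction in the other states. Of the 3084, 93%, 93.5%, 92.2% and 94.1% had the same sign in SA, PRE, HIB and IBA, against 69.9% to 71.8% of all genes tested. Called in the same direction in SA were 1372, which were 44.5% of the POST calls and 61.9% of the SA calls. For PRE this was 38.3% of the POST calls and 70.1% of the PRE calls, for HIB 35.6% and 77.2%, and for IBA 30% and 81.3%. Called in opposite directions were 1 gene with SA, 4 with PRE, 0 with HIB and 0 with IBA. Without number 1, 83.7% to 93.6% of the calls had the same sign in another state, against 66.1% to 74.5% of all genes, and opposite calls numbered 2, 8, 4 and 1.

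The sizes depended on which comparison chose the genes. For genes called higher in SOL in SA, the median log2 difference was 1.14 in SA and 0.92 in POST, and for those higher in EDL -0.82 and -0.65. For the genes called in HIB, the medians were 1.11 in HIB and 1.04 in POST towards SOL, and -1.01 and -1.09 towards EDL. Those called in PRE had 1.09 in PRE and 0.95 in POST towards SOL, and -0.98 and -0.94 towards EDL. Those called in IBA had 1.16 in IBA and 1.26 in POST towards SOL, and -1.03 and -1.07 towards EDL. Read the other way, from the POST calls, the SOL-higher genes had a median of 0.89 in POST and of 0.39 to 0.49 in the other states. The EDL-higher genes had -0.84 in POST and -0.64 to -0.50 elsewhere. The lists chosen in the other states thus kept most or all of their median size in POST, while the list chosen in POST had smaller medians in every other state. The pairs also varied most in POST, and whether this has a part in the contrast was not tested.

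A core of 599 genes was called in all 5 states in 1 direction, with 282 towards SOL and 317 towards EDL. Their POST medians were 1.84 and -1.58 on the log2 scale, and 96.2% of them were called without number 1. In the 4 other states 627 genes were called in 1 direction, so 28 of these were not called in POST. At the other end, 1278 POST calls (41.4%) were called in the same direction in no other state, with POST medians of 0.72 for 768 SOL-higher and -0.68 for 510 EDL-higher genes. Of these 1278, 62.9% were called without number 1.

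Genes called in POST and in no other state in either direction numbered 766 towards SOL and 508 towards EDL. In the fit of all 30 libraries, 0 genes of either set passed a test of the POST difference against that of another state. These sets thus hold genes that passed in POST only, and not genes found to differ between states. Their median differences were 0.72 and -0.68 in POST. In SA, PRE, HIB and IBA the medians were 0.21, 0.22, 0.2 and 0.2 for the SOL-higher genes and -0.31, -0.24, -0.26 and -0.28 for the EDL-higher genes. The sign was the same as in POST for 81.3% to 86.3% and 86.8% to 89.8% of them in each other state. Of the 501 genes called from the 6 POST libraries alone, 25 were called in POST and in no other state, and 346 belonged to the 599 called in all states.

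The difference between the muscles in POST was then tested against that in each other state, which asks whether it changed. In edgeR, 0 genes passed against SA (0%), 2 against PRE (0.0118%), 0 against HIB and 0 against IBA. An unadjusted p under 0.05 was found for 1507 genes (8.89%) against SA, 1311 (7.74%) against PRE, 1346 (7.94%) against HIB and 1227 (7.24%) against IBA. DESeq2's Wald test called 79, 43, 52 and 29. Without number 1, edgeR called 2 against SA (0.0116%), 15 against PRE (0.0872%), 65 against HIB (0.378%) and 1 against IBA (0.00581%).

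The 2 genes that passed against PRE, which lie outside the rule for identifiers given by number, moved in opposite directions. The first, an identifier that is a plain number, stood at 13.1, 19.2 and 22.6 CPM in SOL and at 43, 77.4 and 56.4 CPM in EDL in PRE replicates 1, 2 and 3. In POST it stood at 23.2, 25.7 and 16 CPM in SOL and at 19.8, 22.3 and 11.2 CPM in EDL. The muscles were apart in PRE, with EDL higher in every pair. In POST their levels overlapped, with SOL higher in every pair. Its log2 difference went from -1.68 in PRE to 0.32 in POST, a change of 2 ± 0.25 (SE, edgeR adjusted p = 0.0127, and 0.019 without number 1). In SA, HIB and IBA the difference was -0.39, 0.06 and -0.41. POST did not pass against these states (edgeR adjusted p = 0.433, 0.861 and 0.542), so the change was found against PRE only.

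The second has a text prefix and low counts. It stood at 2.63, 6.91 and 0.399 CPM in SOL and at 1.11, 2.88 and 0.325 CPM in EDL in PRE, where SOL was higher in every pair. In POST it stood at 2.19, 0.276 and 1.61 CPM in SOL and at 7.82, 1.22 and 6.93 CPM in EDL, with EDL higher in every pair, although the SOL and EDL levels overlapped in both states. POST SOL levels came from 9 to 79 counts per library. Its log2 difference went from 1.06 to -2.01, a change of -3.07 ± 0.40 (SE, edgeR adjusted p = 0.0127, and 0.019 without number 1). Against SA the change was -2.78 ± 0.41 (edgeR adjusted p = 0.0901), against HIB -2.09 ± 0.37 (edgeR adjusted p = 0.172) and against IBA -2.16 ± 0.37 (edgeR adjusted p = 0.172). Without number 1 this gene also passed against HIB (edgeR adjusted p = 0.0404). It did not pass against SA or IBA (edgeR adjusted p = 0.0501 and 0.0768). Neither gene passed against PRE in the fit without pairing, where 0 genes were called.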

How the data were processed

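Per the labels' protocols, AG RNAex was used to extract the RNA and a NEBNext Ultra RNA kit to make the libraries. The authors deposited raw read counts, as whole numbers for each identifier in each library. HISAT2 2.0.4 and HTSeq 0.9.1 are named in the submitters' processing notes. The build of the genome, its annotation and the use of strand are not stated in those notes or in the labels, so counts of near-identical, overlapping or antisense genes are uncertain.

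The 30 libraries held 31442362 to 41972200 counts. Groups and numbers come from the labels. Nothing in the labels says that samples came from separate animals, so the p-values reflect only how much these samples vary, which may be technical. Replicates of the POST groups differed by 80.6 to 396 times the degrees of freedom in a chi-square of their counts, so none was counted as a duplicate.

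The counts were fitted with edgeR 4.0.16 in R 4.3.3: filterByExpr with a minimum count of 10, TMM normalisation, a term for each pair and a SOL minus EDL term for each state, and the quasi-likelihood F test with 10 residual degrees of freedom. Benjamini-Hochberg adjustment ran over all genes tested, with a threshold of 0.05. The standard error is the log2 difference divided by the square root of F. Levels are TMM-normalised CPM. Log2 CPM used a prior count of 2.

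Deviations from the group mean correlated at 0.13, 0.36 and 0.41 between the SOL and EDL libraries of numbers 1, 2 and 3 in POST. All are above 0.1. The plan had set the same numbers as pairs beforehand, and these correlations served as a check. Between unlike numbers the correlations ran from -0.37 to 0.06. Deviations within a group of 3 sum to 0, so positive values for like numbers push those for unlike numbers down. The contrast is thus partly built in. The 0.06 was SOL replicate 1 with EDL replicate 2, so number 1 was only narrowly told apart. The pairing is not stated in the labels, and these correlations cannot settle it.

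Identifiers given by number are the 2 with the largest log2 difference in each direction among genes called, with a mean of at least 5 CPM, no overlap between SOL and EDL, and a call without number 1. Lists by gene symbol were not run, as no symbols were given. The members and tests were chosen with earlier results of these data known. Alternatives were the size factors of DESeq2, the Wald test of DESeq2 1.42.0, no filter on low counts, no pairing, only the POST libraries and leaving out each pair.

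On counts simulated from the fitted means and spread for SOL against EDL in POST, with 200 of 16826 genes changed, the test recovered 10.6% of the genes changed 1.5-fold, 46.3% of those changed 2-fold and 73.1% of those changed 4-fold, with 6 false calls. All states had the same spread in that simulation, which the POST libraries do not.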

Additional observations from a re-analysis of the deposited data

Results flagged for a closer look

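The SOL minus EDL difference of 2 genes was not the same in POST as in PRE, by edgeR's test of the difference itself. For the gene that is a plain number the change was 2 on the log2 scale. It went from EDL higher in PRE to overlapping values in POST, with SOL higher in every POST pair. For the gene with a text prefix it was -3.07, from SOL higher in all 3 pairs to EDL higher in all 3 pairs. The second gene's levels differed widely between same-state numbers in both muscles, and whether this has a part in the result was not tested.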

How the results depend on the processing

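The count of 3084 genes moved with the pairing and with the libraries that give the spread. With no replicate block it was 1426 (746 higher in SOL, 680 in EDL). With the pairing and only the 6 POST libraries it was 501 (253 and 248), and with no block and only these libraries 300 (158 and 142). Over the fits that left out a pair or POST SOL replicate 1 it ran from 1585 to 3889, with 797 to 1954 higher in SOL and 663 to 1935 higher in EDL. Without POST SOL replicate 1 and without pairing it was 1605 (797 and 808), with the POST libraries of numbers 2 and 3 alone 1585 (922 and 663), and without number 2 it was 2024 (1003 higher in SOL). DESeq2's size factors (3101), no filter (2816) and DESeq2 (3661) kept it within 1.5 times, with 47.2% to 47.7% of calls higher in SOL against 51.8%. Counts of genes whose muscle difference in POST was unlike that of SA, PRE, HIB and IBA were 79, 43, 52 and 29 in DESeq2, 1 for SA without a filter and 0 for PRE with no replicate block. With a pair or library left out they ran from 0 to 3, 0 to 15, 0 to 65 and 0 to 1, and stood at 2, 15, 65 and 1 without number 1. The cause of these moves was not tested. In all 11 alternatives, none of the 4 identifiers given by number changed direction, and their calls were lost in only 1 case, for 101973267 with only the 6 POST libraries and no pairing. These 4 were chosen for large differences without overlap and for a call without number 1. Their stability is therefore a description. At this depth counting error matters mainly for genes with few counts.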
